A study of Mus musculus with 6 samples.

Results

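The insulin-like growth factor (IGF) system was followed through 10 genes given as a list by name. They were the ligands Igf1 and Igf2, the receptors Igf1r and Igf2r, and the binding proteins Igfbp2, Igfbp3, Igfbp4, Igfbp5, Igfbp6 and Igfbp7. All 10 were found among the 37620 genes counted, and all 10 exceeded 1 CPM (a gene's counts scaled to the counts of its sample) in at least 1 sample and were tested. The samples were 3 Klf9 +/+ and 3 Klf9 f/f pools from Gli1CreERT2:Rpl22HA f/+ mice of 2 to 3 months, so that the Cre driver and the tagged ribosome were common to both genotypes and the floxed Klf9 alleles set them apart. All mice had received tamoxifen, which switches on the Cre, and dentate gyri were taken 4 days after the last injection. Each sample pooled 6 dentate gyri from 3 mice, and ribosomes tagged with hemagglutinin (HA) were pulled down with an antibody to recover the mRNAs bound to them. The Cre that switches on the tag is driven by Gli1, which in the dentate gyrus marks radial-glial neural stem cells (RGLs) and, by the study's account, astrocytes, and the first progeny of RGLs can carry the tag too. The titles call the Klf9 f/f samples knock down. They place replicates 1 and 2 of each genotype in the library series YTa22 and replicate 3 of each in YTa32, and whether these series differed in day, kit or sequencing run is not stated. Replicate numbers were given here within each genotype and pair no samples, and values listed for a genotype follow replicates 1, 2 and 3.

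IGF1 and IGF2 are secreted growth factors that signal mainly through the receptor tyrosine kinase IGF1R to the PI3-kinase and ERK cascades. IGF2R, the cation-independent mannose 6-phosphate receptor, takes up IGF2 for degradation in lysosomes and has no kinase. The binding proteins hold the ligands outside the cell, where they can lengthen their life, block access to the receptor or, after cleavage by proteases, release them. IGFBP7 is a more distant relative that binds IGFs weakly. In the brain, Igf2 is known from choroid plexus, meninges and vessels as well as from neural stem cells, and both ligands act on adult hippocampal neurogenesis.

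Reads counted on genes ranged from 21594714 to 66343759 per sample, with the fewest in YTa32. Klf9 had 201, 204 and 139 CPM in the Klf9 +/+ pools and 114, 121 and 120 CPM in the Klf9 f/f pools, with a log2 fold change of -0.59 and a standard error (SE) of 0.15. Levels of marker lists for 12 cell types were summed to describe which markers the pull-downs held. The lists differ in size and the sums are not scaled for length, so they are not shares of cells. Astrocyte markers were the highest list, at 12240 to 18320 CPM, and the 8 RGL markers, among them Fabp7, Nes and Hopx, summed to 2145 to 3095 CPM. Markers of other cells were also counted, at 780 to 1074 CPM for granule neurons, 408 to 662 for oligodendrocytes, 131 to 183 for microglia and 75.9 to 108 CPM for interneurons, besides vessels, meninges and choroid plexus. In no list was a marker at 0 in all samples.

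Igfbp2 dominated the family when levels were taken over merged exons. Per kilobase of merged exons (RPKM, computed here from CPM after TMM scaling), Igfbp2 stood at 169.7, 183 and 268 in Klf9 +/+ replicates 1, 2 and 3 and at 185, 128 and 161 in Klf9 f/f, and it was the highest of the 10 genes in all 6 samples. It held 51.9% to 69.2% of the summed RPKM of the 6 binding proteins. Igfbp7, Igf2 and Igfbp6 followed at mean RPKM of 42.6, 37.4 and 32.3, then Igfbp4 at 18.6 and Igfbp5 at 15.6. Igfbp3 at 4.26, Igf1r at 3.06, Igf2r at 1.23 and Igf1 at 0.557 RPKM were the lowest. Neighbours in this order were compared by the log2 ratio of their RPKM within each sample, as a description without a test, since the pairs and their direction were taken from the means of the same 6 samples. Of the 9 neighbouring pairs, 6 kept the same order in all 6 samples. Igfbp2 exceeded Igfbp7 by 2.30 ± 0.72 (SD, n = 6) on the log2 scale, and Igfbp5 exceeded Igfbp3 by 1.96 ± 0.64 (SD, n = 6). The log2 ratio was within its spread for Igfbp7 over Igf2 at 0.02 ± 0.93 (SD, n = 6), for Igf2 over Igfbp6 at 0.20 ± 0.39 (SD, n = 6) and for Igfbp3 over Igf1r at 0.62 ± 1.09 (SD, n = 6), pairs that kept the order of their means in 2, 5 and 5 of the 6 samples. The place of the ligands depends on the transcript assumed. The annotation gives Igf1 9921 bp of merged exons, of which 6.2% are coding, and Igf2 5493 bp, of which 10.4% are coding. With the shortest coding transcript as the length, Igf2 stood at a geometric mean of 300.6 RPKM, second to Igfbp2 at 331, and Igf1 at 8.09, above Igfbp3, Igf1r and Igf2r. These lengths are 650 bp for Igf2 and 991 bp for Igfbp2, and they place Igf2 above Igfbp2 in some samples. An example is Klf9 +/+ replicate 3, with 342 CPM for Igf2 and 495 CPM for Igfbp2.

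**Figure D1:**
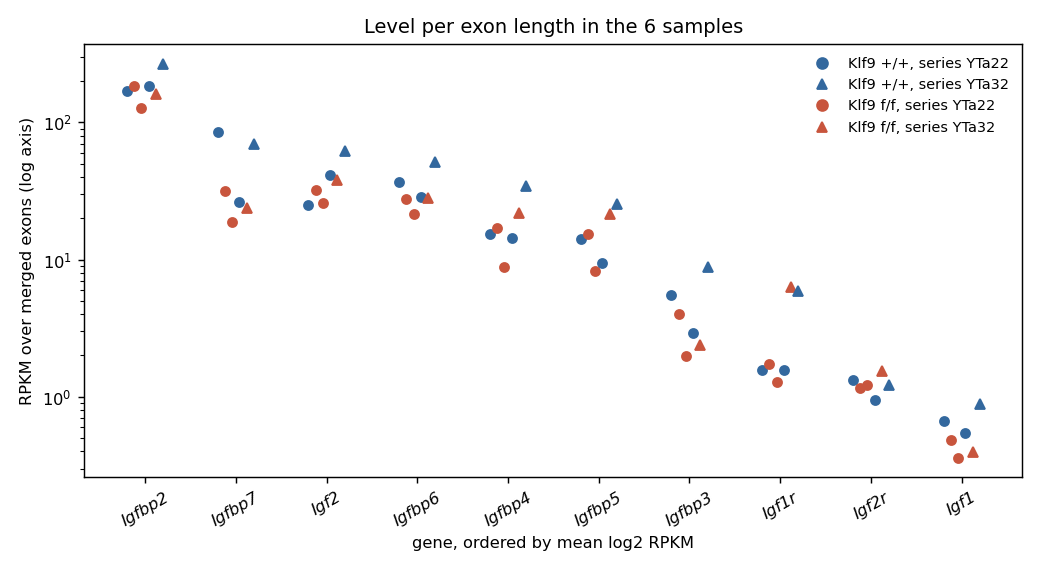
RPKM over merged exons (log axis) of the 10 IGF genes in the 6 samples, ordered by mean log2 RPKM, with colour for genotype and symbol for library series. Igfbp2 lies above all other genes in all 6 samples, Igfbp7 spans from 18.7 to 85.3 RPKM, and both YTa32 samples of Igf1r lie above the 4 of YTa22.

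The question of the genotype comparison was which of these genes differ between Klf9 f/f and Klf9 +/+ in the mRNA pulled down with tagged ribosomes. These pull-downs also held markers of other cell types. In Klf9 f/f, 4 of the 10 IGF genes fell, Igf1 among the ligands and Igfbp3, Igfbp6 and Igfbp7 among the binding proteins, and 0 rose, at a threshold of 1.2-fold and an unadjusted p under 0.05 in edgeR's quasi-likelihood test with the library series as a term. Of all 15056 genes tested, 2.50% were called down, 1.82% up and 4.32% either way. The study itself names Igfbp3, Igfbp6 and Igfbp7 among its downregulated genes, from the same samples and at the same threshold. Their calls here repeat that result and are no independent evidence. In all, 9 of the 10 had a negative log2 fold change (Klf9 f/f over Klf9 +/+), as did 7503 of the 15056 genes tested. The median of the 10 was -0.36, while the median over all genes tested was 0.00084. None of the 10 passed a Benjamini-Hochberg adjusted p of 0.05 over all genes tested, with a smallest value of 0.973 for Igfbp7 by the edgeR quasi-likelihood test, and 0 passed by the likelihood-ratio test or DESeq2, where 4 again had an unadjusted p under 0.05. Of all genes tested, 0 (0%) passed that adjusted p by the quasi-likelihood test, 58 by the likelihood-ratio test and 39 by DESeq2, and 650 had an unadjusted p under 0.05 in the first of these. Fewer cells of a type and less RNA per cell cannot be told apart in such pools. The samples are separate pools by their labels, and the p-values measure the spread between these pools.

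**Figure D2:**
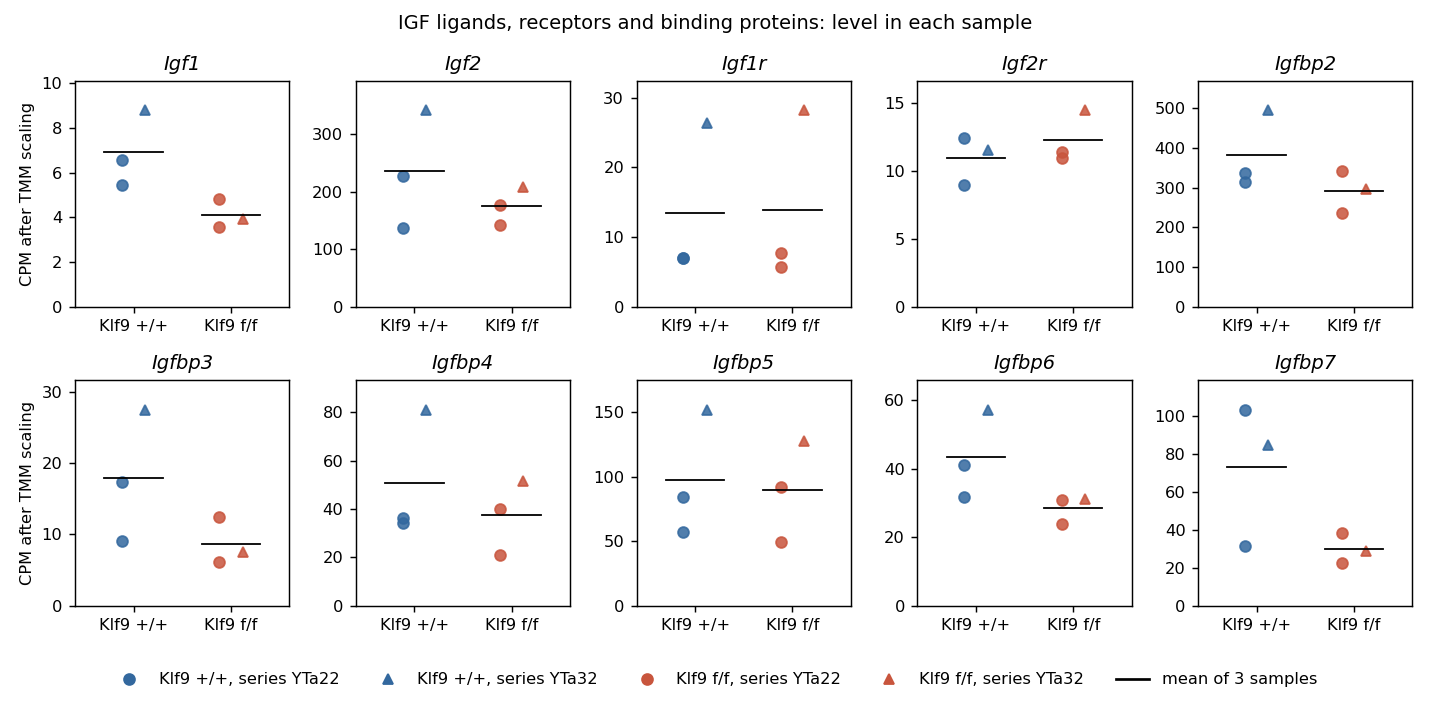
CPM after TMM scaling of each IGF gene in each sample, by genotype, with circles for library series YTa22, triangles for YTa32 and a line at the mean of 3 samples. The 3 Klf9 f/f samples of Igf1 and of Igfbp6 lie below all 3 Klf9 +/+ samples, and for the other 8 genes the genotypes overlap.

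KLF9 is known to bind GC-rich elements, the GC box and the CACCC box, so the 250 bases before the RefSeq start site of each gene (windows of GRCm38.p6, matched letter for letter to mm9) were searched for GGGCGG and CACCC on both strands, counting overlapping matches. Windows were found for all 10 genes, with 4 for Igf2 and 2 for Igfbp2. The windows of the 4 genes called down are printed 5′ to 3′ along each gene, since these carry the genotype differences, with matches in capitals.
Igfbp7, mm9 chr5:77837071-77837320, minus strand: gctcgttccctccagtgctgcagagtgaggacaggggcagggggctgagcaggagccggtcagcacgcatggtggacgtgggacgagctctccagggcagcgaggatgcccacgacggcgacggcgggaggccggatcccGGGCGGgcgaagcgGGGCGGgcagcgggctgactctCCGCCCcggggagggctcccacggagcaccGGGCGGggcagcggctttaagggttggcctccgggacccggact
Igfbp3, mm9 chr11:7113927-7114176, minus strand: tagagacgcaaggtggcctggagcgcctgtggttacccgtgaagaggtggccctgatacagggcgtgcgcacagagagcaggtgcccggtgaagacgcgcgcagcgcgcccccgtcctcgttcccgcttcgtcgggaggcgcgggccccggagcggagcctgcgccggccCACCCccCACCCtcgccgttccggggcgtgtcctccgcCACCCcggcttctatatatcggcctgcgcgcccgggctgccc
Igfbp6, mm9 chr15:101974367-101974616, plus strand: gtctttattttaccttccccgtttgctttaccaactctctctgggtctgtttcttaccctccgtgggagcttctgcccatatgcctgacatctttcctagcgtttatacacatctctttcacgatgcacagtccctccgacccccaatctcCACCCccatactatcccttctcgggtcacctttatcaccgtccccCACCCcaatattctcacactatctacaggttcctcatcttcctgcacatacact
Igf1, mm9 chr10:87323606-87323855, plus strand: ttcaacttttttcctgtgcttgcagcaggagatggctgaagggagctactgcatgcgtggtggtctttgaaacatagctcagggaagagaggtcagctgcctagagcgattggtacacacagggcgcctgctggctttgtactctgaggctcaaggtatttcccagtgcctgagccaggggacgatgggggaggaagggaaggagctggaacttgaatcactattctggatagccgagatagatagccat
The 4 windows differ. That of Igfbp7 holds 4 GC boxes, the closest starting 44 bases before the start site, and 0 CACCC boxes. Those of Igfbp3 and Igfbp6 hold 3 and 2 CACCC boxes and 0 GC boxes, and that of Igf1 holds neither. This Igf1 window lies inside the annotated gene, which starts at 87321010 and has 9 transcripts, and the bases before that start were not searched. Of 32851 promoter windows of this length, 32.7% hold a GC box and 52.0% a CACCC box. Among the 6 genes not called, Igf1r, Igf2r, and some windows of Igf2 and Igfbp2 hold a GC box as well, and 5 of these 6, Igf2, Igf2r, Igfbp2, Igfbp4 and Igfbp5, hold a CACCC box. These are matches of letters and not sites shown to be bound.

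Igf1 (ENSMUSG00000020053, mm9 chromosome 10, plus strand, 87321010 to 87399792), the ligand of IGF1R, had 6.59, 5.44 and 8.79 CPM in the Klf9 +/+ pools and 4.82, 3.58 and 3.92 CPM in the Klf9 f/f pools. Every Klf9 f/f sample was below every Klf9 +/+ sample, an arrangement seen in 1.35% of the genes tested. The log2 fold change was -0.72 (SE 0.25, unadjusted p = 0.0169 and adjusted p = 1.00 by the edgeR quasi-likelihood test), with differences of -0.52 within YTa22 and -1.16 within YTa32. These levels rest on 88 to 326 reads per sample. The call was lost without Klf9 f/f replicate 2, at -0.66, and without either replicate 3, at -0.52. Because the series term takes up a lone YTa32 pool, leaving out either replicate 3 amounts to the fit on YTa22 alone, here and for the genes below.

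Igf2 (ENSMUSG00000048583, minus strand of chromosome 7, 149836673 to 149852721), an imprinted growth factor, was far more abundant, with 4659 to 13130 reads per sample. It had 137, 228 and 342 CPM in the Klf9 +/+ pools and 177, 142 and 207.5 CPM in the Klf9 f/f pools. The lowest Igf2 level of all was that of Klf9 +/+ replicate 1, and the genotypes overlapped. Its log2 fold change of -0.37 (SE 0.21) did not pass the threshold. With the mean level of choroid plexus markers added as a covariate the value was 0.59, and without Klf9 +/+ replicate 1 it was -0.60 and passed. The antisense gene Igf2as shares 98 bp of exons with Igf2, and counting ignored strand, but it had only 1 to 12 reads per sample.

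Neither receptor differed between the genotypes beyond its error. Igf1r (ENSMUSG00000005533, plus strand of chromosome 7, 75097713 to 75371484), the signalling receptor, had 7.02, 7.03 and 26.4 CPM in the Klf9 +/+ pools and 7.75, 5.75 and 28.2 CPM in the Klf9 f/f pools. Its log2 fold change was -0.0032 with an SE of 0.17. What set its samples apart was the library series, with YTa32 higher than YTa22 by 1.98 on the log2 scale (SE 0.18, adjusted p = 0.00162 by the edgeR quasi-likelihood test). The annotated exons of Igf1r are 92.9% coding, so that reads from a longer untranslated end would not be in its count. Igf2r (ENSMUSG00000023830, minus strand of chromosome 17, 12875272 to 12962530), the clearance receptor, was the steadiest of the 10 genes, with its lowest and highest RPKM 1.61-fold apart. It had 12.4, 8.97 and 11.6 CPM in the Klf9 +/+ pools and 10.9, 11.4 and 14.5 CPM in the Klf9 f/f pools. Its log2 fold change of 0.15 (SE 0.19) was the only positive value among the 10 genes.

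Among the binding proteins, Igfbp7 (ENSMUSG00000036256, minus strand of chromosome 5, 77778265 to 77837070), which is abundant in vessels, had the largest difference. It had 103, 31.7 and 84.9 CPM in the Klf9 +/+ pools and 38.6, 22.6 and 28.9 CPM in the Klf9 f/f pools. Klf9 +/+ replicates 1 and 3 stood apart from the other 4 samples, and Klf9 +/+ replicate 2 lay below Klf9 f/f replicate 1. The log2 fold change was -1.28 (SE 0.38, unadjusted p = 0.00855 by the edgeR quasi-likelihood test), with -0.95 within YTa22 and -1.55 within YTa32. Without Klf9 +/+ replicate 1 it was -0.71 and did not pass the threshold. Of its exons, 85 bp overlap Polr2b on the opposite strand, which had 2705 to 8146 reads per sample, and counting ignored strand.

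Igfbp3 (ENSMUSG00000020427, minus strand of chromosome 11, 7106089 to 7113926), the main carrier of IGFs in serum, had 17.3, 9.06 and 27.5 CPM in the Klf9 +/+ pools and 12.5, 6.15 and 7.53 CPM in the Klf9 f/f pools. The genotypes overlapped within YTa22, where Klf9 f/f replicate 1 was above Klf9 +/+ replicate 2. Its log2 fold change was -0.93 (SE 0.38, unadjusted p = 0.0359 by the edgeR quasi-likelihood test), with -0.51 within YTa22 and -1.86 within YTa32. It passed only without Klf9 f/f replicate 1 or Klf9 +/+ replicate 2 among the 6 fits with a sample left out, and without Klf9 +/+ replicate 3 or Klf9 f/f replicate 3 it was -0.50 and -0.495.

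Igfbp6 (ENSMUSG00000023046, plus strand of chromosome 15, 101974793 to 101979942), which prefers IGF2 over IGF1, had 41.0, 31.6 and 57.3 CPM in the Klf9 +/+ pools and 30.8, 23.9 and 31.0 CPM in the Klf9 f/f pools. All Klf9 f/f samples were below all Klf9 +/+ samples, although Klf9 f/f replicates 1 and 3 came within 1 CPM of Klf9 +/+ replicate 2. The log2 fold change was -0.56 (SE 0.18, unadjusted p = 0.0105 by the edgeR quasi-likelihood test), with -0.41 within YTa22 and -0.88 within YTa32. Without replicate 3 of either genotype it was -0.41 and did not pass.

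The other binding proteins did not pass the threshold. Igfbp2 (ENSMUSG00000039323, plus strand of chromosome 1, 72871077 to 72899048) had 313, 337 and 495 CPM in the Klf9 +/+ pools and 341, 237 and 297 CPM in the Klf9 f/f pools, with a log2 fold change of -0.36 (SE 0.18). Without Klf9 f/f replicate 1 it was -0.58 and passed. In YTa22 the highest Igfbp2 level was that of Klf9 f/f replicate 1 and the lowest that of Klf9 f/f replicate 2. Igfbp4 (ENSMUSG00000017493, plus strand of chromosome 11, 98902558 to 98913969), an inhibitory binding protein, had 36.4, 34.2 and 81.0 CPM in the Klf9 +/+ pools and 39.9, 20.8 and 51.6 CPM in the Klf9 f/f pools, with a log2 fold change of -0.36 (SE 0.23), and at -0.71 it passed without Klf9 f/f replicate 1. Igfbp5 (ENSMUSG00000026185, minus strand of chromosome 1, 72904506 to 72921458), the most conserved of the family, had 84.1, 57.1 and 152 CPM in the Klf9 +/+ pools and 92.1, 49.2 and 128 CPM in the Klf9 f/f pools, with a log2 fold change of -0.08 (SE 0.24). For Igfbp4 and Igfbp5 the series mattered more than the genotype, with YTa32 higher by 0.99 and 0.98 on the log2 scale (SE 0.23 and 0.24, adjusted p = 0.0144 and 0.0174 by the edgeR quasi-likelihood test). Igf1r, Igfbp4 and Igfbp5 were the 3 of the 10 genes that differed between the series, where 29.5% of all genes tested did.

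The genotype difference had the same negative sign in both series for 8 of the 10 genes, and it was larger in YTa32, with a single pool of each genotype, than in YTa22 for all 8. Klf9 itself had the opposite pattern, with a difference of -0.78 within YTa22 and -0.21 within YTa32, and a genotype by series interaction of 0.57 on the log2 scale (SE 0.34). Whether the pattern of Klf9 bears on that of the IGF genes was not tested. The difference between the series was itself tested as a genotype by series interaction in edgeR's quasi-likelihood fit, and 0 of the 10 genes had an unadjusted or adjusted p under 0.05. Igfbp3 had the smallest unadjusted interaction p of the 10, 0.0634, with an interaction of -1.37 on the log2 scale (SE 0.66). Of all genes tested, 1.53% had an unadjusted interaction p under 0.05. Within each series, all Klf9 f/f samples lay below the Klf9 +/+ samples for Igf1 and Igfbp6, 2 of the 10 genes, an arrangement that 5.53% of all genes tested showed. For 0 of the 10 genes did they lie above in both series, as 7.78% of all genes tested did.

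**Figure D3:**
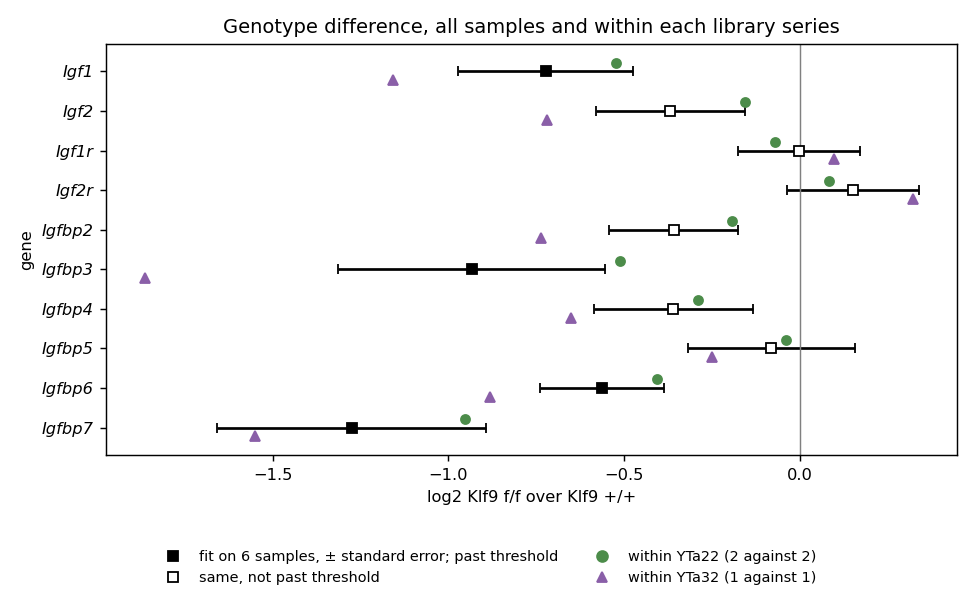
Log2 Klf9 f/f over Klf9 +/+ of each IGF gene from the fit on 6 samples (squares, with standard error, filled where past 1.2-fold and an unadjusted p under 0.05) and as the plain difference of log2 CPM within series YTa22 (circles) and YTa32 (triangles). The 4 filled squares are Igf1, Igfbp3, Igfbp6 and Igfbp7, and the triangles of Igfbp3 and Igfbp7 lie at -1.86 and -1.55.

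All 11 choroid plexus markers were called down in Klf9 f/f as well, as were some of those of vessels and meninges, whose summed levels overlapped between the genotypes. Endothelial markers summed to 167 to 430 CPM in Klf9 +/+ and 66.6 to 271 CPM in Klf9 f/f, with 3 of 12 called down, and mural markers to 593 to 1133 and 448 to 772 CPM, with 6 of 11 called down. Meningeal fibroblast markers summed to 885 to 1670 CPM in Klf9 +/+ and 459 to 1048 CPM in Klf9 f/f, with 4 of 11 called down. Choroid plexus markers, led by Ttr, had 11 of 11 called down. They ranged from 125 to 2673 CPM in Klf9 +/+ and from 15.0 to 398 CPM in Klf9 f/f. The sums overlapped over the 6 samples, but within each series Klf9 f/f lay below Klf9 +/+. In YTa22 Klf9 +/+ had 125 and 707 CPM and Klf9 f/f had 17.9 and 15.0 CPM. In YTa32 Klf9 +/+ had 2673 CPM and Klf9 f/f had 398 CPM. Of the remaining lists 3 of 3 blood, 2 of 5 ependymal and 1 of 6 oligodendrocyte markers were called down, and 0 of the RGL, granule neuron, interneuron and microglia markers were called. The part of these markers in the differences of the IGF genes was not tested, but the profiles can be set side by side. The order of the 6 samples was compared for every pair of the 10 genes and the 12 lists. Igfbp7 and the summed endothelial markers were the only pair with the same order, from Klf9 +/+ replicate 1 down to Klf9 f/f replicate 2. Taking the root mean square difference of centred log2 levels over the 6 samples, the nearest of the 12 marker lists was endothelial for Igfbp7 (0.405), mural for Igf1, Igfbp3 and Igfbp6 (0.206, 0.323 and 0.160), and meningeal fibroblast for Igfbp4 and Igfbp5 (0.209 and 0.347). Igf2 and Igfbp2 were nearest to oligodendrocyte markers (0.304 and 0.207), with meningeal fibroblast markers next (0.341 and 0.255). Igf2r was nearest to astrocyte markers (0.181), little less than 0.206, its own spread and thus its distance from a flat profile. Igf1r, with a spread of 0.945, was far from all 12 lists, at 0.738 or more. Choroid plexus markers varied far more than any IGF gene, and the distance is not scaled for spread. That list was thereby the farthest for all 10 genes, at 2.19 to 2.74, which does not tell whether its pattern was alike.

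When the fit also took in the average of the meningeal, mural and endothelial lists as a covariate, 0 of the 10 genes were called down. Of all 15056 genes tested, 780 were called down and 753 up in that fit. In that fit Igfbp7 was at -0.27, Igfbp3 at -0.08, Igfbp6 at -0.24 and Igf1 at -0.39, while Igfbp5 turned to 0.47 and was called up. With the choroid plexus covariate Igfbp7 alone of the 10 was called down, at -2.71, beside 629 of all genes tested. With the astrocyte covariate 6 of the 10 were called down, beside 628 of all genes tested, Igfbp4 and Igfbp5 being added at -0.76 and -0.60. These fits leave 2 residual degrees of freedom, and the covariates were measured in the same libraries as the genes.

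**Figure D4:**
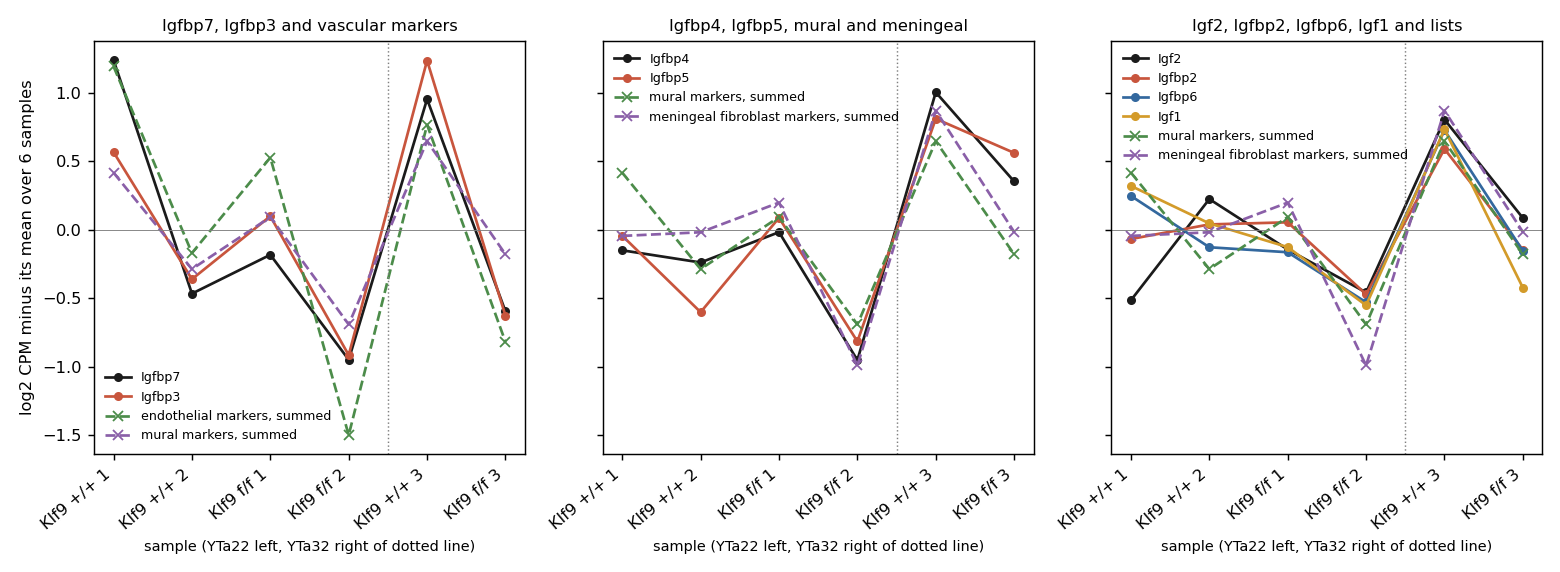
Log2 CPM minus its mean over the 6 samples for IGF genes (solid lines) and for the summed markers of endothelial, mural and meningeal fibroblast cells (dashed lines), with series YTa22 to the left and YTa32 to the right of the dotted line. Klf9 f/f replicate 2 is the lowest sample of Igfbp7, Igfbp3, Igfbp4, Igfbp5 and all 3 marker lists shown, and Igfbp7 and the endothelial markers peak in Klf9 +/+ replicate 1.

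Among the 10795 genes with a mean of at least 3 log2 CPM, the genes with profiles closest to the IGF genes over the 6 samples were found by the same distance. Igfbp7 was closest to Tinagl1, Des and Podxl (0.147, 0.167 and 0.215), of which Des encodes the intermediate filament protein of muscle and pericytes and Podxl a sialomucin of endothelium and podocytes. Igfbp3 was closest to Rbp4, Fn1 and Utrn (0.187, 0.222 and 0.223). Igfbp5 was closest to the mural receptor Pdgfrb, Slc13a3 and Tmem64 (0.0838, 0.0963 and 0.116), of which only Pdgfrb was in a marker list. Igfbp4 was closest to Tgfbr2, Timp3 and Aebp1 (0.0887, 0.0938 and 0.123). Igfbp2 was closest to Slc31a1, Zic4 and the chemokine Cxcl12 (0.0657, 0.0743 and 0.0866). Igf1 was closest to Rbms1, Neat1 and Igfbp6 (0.0999, 0.133 and 0.135). Igfbp6 was closest to Neat1, Itpr1 and Nbeal1 (0.0656, 0.0908 and 0.114), so that Igf1 was not among its 3 nearest genes. Igf2 was closest to Slain2 (0.114), Igf1r to Clip2 (0.193) and Igf2r to Pfkfb3 (0.0673). All these profiles share the same 6 libraries and 2 library series, and the neighbours are a description.

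Few other genes of the IGF axis were called, as was so for genes at large. Of 44 genes in lists of insulin relatives, proteases and their inhibitors, adaptors, the PI3-kinase, AKT and mTOR pathway and Igf2-related genes, 34 were tested, 1 rose and 0 fell, with a median log2 fold change of -0.04. Of all genes tested, 4.32% were called either way, so that a list of 34 genes cannot be set apart from genes at large by these counts. The gene that rose was Htra1, a secreted serine protease that can cleave binding proteins, which had 495, 482 and 370 CPM in the Klf9 +/+ pools and 672, 528 and 556 CPM in the Klf9 f/f pools. All its Klf9 f/f samples were above all its Klf9 +/+ samples, which held for 2.03% of all genes tested, and its log2 fold change was 0.39 (SE 0.15, adjusted p = 1.00 by the edgeR quasi-likelihood test). Htra1 was near Igfbp2 in mean level per length, at 179.6 against 182 RPKM. The astrocyte markers, 5 of 10 of which were called up, were also higher, summing to 15430 to 18320 CPM in Klf9 f/f and 12240 to 15780 CPM in Klf9 +/+, and with their mean as a covariate Htra1 was not called. Nor was it called without the series term, or without Klf9 f/f replicate 1, Klf9 +/+ replicate 2 or either replicate 3. Of the other lists, the most abundant gene per length was Igfbpl1, a binding protein-like gene of young neurons, at 69.9 RPKM with a log2 fold change of -0.35 (SE 0.44). Among the adaptors it was Grb2 (0.03, SE 0.15), in the PI3-kinase list Akt1 (-0.01, SE 0.17) and in the last list M6pr, the small mannose phosphate receptor (0.03, SE 0.12). All 17 genes of the PI3-kinase, AKT and mTOR list were tested and 0 were called, with a median of 0.02. In a list of this size, 0 calls cannot be told apart from the 4.32% called of all genes. Igfbp1, with 13 reads over the 6 samples, was too low to test, as were Ins2 at 37, H19 at 44 and Ins1 at 0 reads, which allows up to 3 reads over the 6 samples for counting error only.

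**Figure D5:**
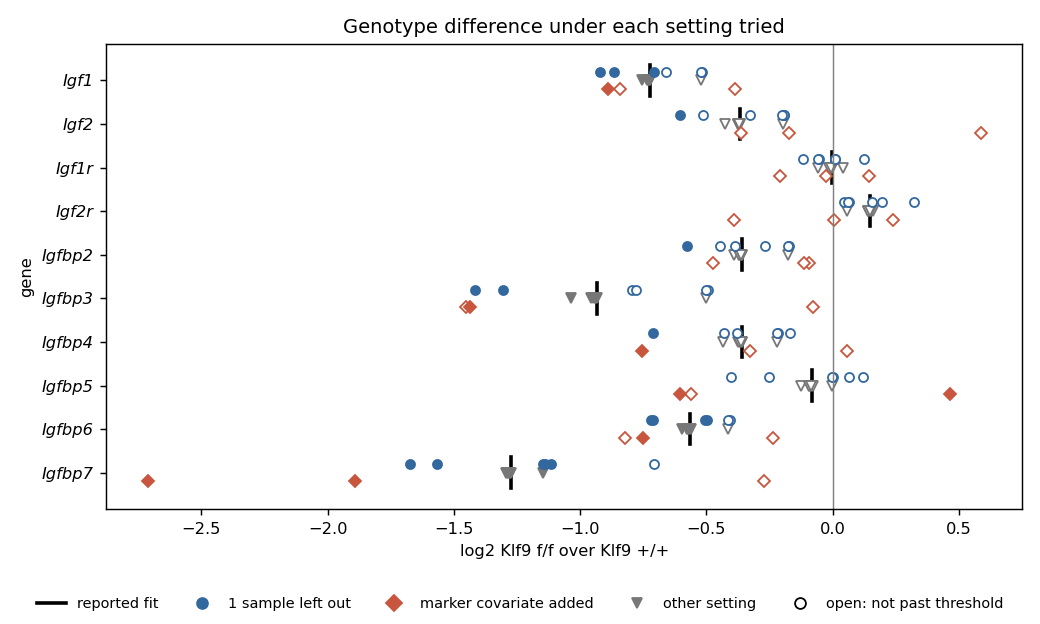
Log2 Klf9 f/f over Klf9 +/+ of each IGF gene under the reported fit (black bar) and 17 other settings, filled where past 1.2-fold and an unadjusted p under 0.05. Igfbp7 ranges from -2.71 to -0.27 and Igf2 from -0.60 to 0.59, and for Igfbp7, Igfbp3, Igfbp6 and Igf1 the value nearest to 0 is the fit with the vascular and meningeal covariate.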

How the data were processed

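Ribosome-bound mRNA of 3 Klf9 +/+ and 3 Klf9 f/f pools was sequenced. By the study's methods the authors mapped reads with STAR to mm9 and assigned them to genes with HTSeq ignoring strand, and the deposited values are whole-number counts without normalization. The 5 summary lines were left out of library sizes and tests, and reads in no gene or in several came to 9.47% to 15.6% of reads in those classes and on genes together. Of 37620 genes, 37205 were named from GENCODE M1. The 15056 genes that exceeded 1 CPM in any sample were kept, normalized by TMM and tested with edgeR 4.0.16 (glmQLFit, glmQLFTest) under R 4.3.3 with the library series as a term, which left 3 residual degrees of freedom. The threshold of 1.2-fold with an unadjusted p under 0.05 follows the study's methods, with the Benjamini-Hochberg adjustment taken over all genes tested. Standard errors are the log2 fold change over the square root of F. Log2 CPM used a prior count of 2, and RPKM is CPM per kb of merged exons. The genes named are the 10 IGF genes, Klf9, axis genes called or highest in their list, the 3 nearest profiles and the top marker of each list. Any other gene was chosen after its values were seen. The IGF genes and lists were chosen with earlier results of these data known. Alternatives included DESeq2 1.42.0, other normalizations, filters and covariates, and each sample left out in turn. The tests were first run on simulated counts. Figures used matplotlib 3.10.9 under Python 3.11.15.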

Additional observations from a re-analysis of the deposited data

How the results depend on the processing

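The number of IGF genes called down was 4 as reported and also 4 without the series term, with the likelihood-ratio test, DESeq2, upper-quartile normalization, DESeq2 size factors or the filter of 1 CPM in at least 3 samples. It was 7 with no filter beyond 1 count (25153 genes tested), where 2 (Igfbp3 and Igfbp7) also had an adjusted p under 0.05 from edgeR, and 1 in YTa22 alone, 1 with the choroid plexus covariate, 0 with the vascular and meningeal covariate and 1 to 6 with a sample left out, 1 without either replicate 3 (in effect YTa22 alone, since the series term takes up the lone YTa32 pool), 2 without Klf9 f/f replicate 2 and 6 without Klf9 f/f replicate 1. Calls up were 0, except 1 (Igfbp5) with the vascular and meningeal covariate. The cause of these changes was not tested.

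Of the axis genes called down, 0 as reported, there were 1 with upper-quartile normalization, 4 with no filter, 1 in YTa22 alone, 1 and 4 with the choroid plexus and the vascular and meningeal covariate and 0 to 1 with a sample left out. Axis genes called up were 0 without the series term, 0 in YTa22 alone, 0 with the astrocyte covariate and 0 to 2 with a sample left out, against 1 as reported. Of all genes, 376 were called down and 274 up as reported. They were 163 and 50 without the series term, 926 and 513 with no filter, and 202 and 163 in YTa22 alone. With the choroid plexus, vascular and meningeal, and astrocyte covariates 629, 780 and 628 were called down, and with the last of these 139 and with the vascular and meningeal one 753 were called up. With a sample left out, 209 to 719 were called down and 130 to 493 up.

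Signs turned for genes that had not passed. Igf1r was at 0.039 without the series term, at 0.14 with the vascular and meningeal covariate, and between -0.12 and 0.12 with a sample left out. Igfbp5 was at 0.47 with the vascular and meningeal covariate and between -0.40 and 0.12 with a sample left out. With the choroid plexus covariate Igf2 was at 0.59 and Igf2r at -0.39, and with the vascular and meningeal one Igfbp4 was at 0.058. The genes that differed between the series were 3 to 6 with a YTa22 sample left out, 6 being without Klf9 f/f replicate 1.

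The log2 ratio of Igfbp7 over Igf2 was -0.20 with the longest and -2.94 with the shortest coding transcript as length, and between -0.33 and 0.16 with a sample left out, the lowest without Klf9 +/+ replicate 1. That of Igf2r over Igf1 was -2.64 with the shortest coding transcript. The SE of Igf1, with 88 to 326 reads per sample, was 0.25, below the 0.38 of the deeper Igfbp3 and Igfbp7. No paired analysis was possible because the labels give no replicate numbers that pair samples across genotypes.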
